A study of Mus musculus with 39 samples.

Results

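The genes of cholesterol synthesis and sterol handling were followed through 39 mRNA-seq libraries from mice lacking the transcription factor E47 and from their controls. The set was given as a list of gene symbols, drawn up with earlier results of these data known, and all 32 listed genes were found among the 46078 gene identifiers of the count files. It holds 20 enzymes that build cholesterol or its precursors, 8 genes that sense or control sterol levels, and 4 genes of sterol efflux and esterification. E47 is a basic helix-loop-helix factor made from the gene *Tcf3*, and the study asked how its loss alters the response of metabolic tissue to glucocorticoids.

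All mice were male, on a C57BL/6 background and fed chow. Global *E47* knockouts (E47-/-, here E47KO) were compared with E47+/+ wild-type littermates (WT). Livers came from mice given the synthetic glucocorticoid dexamethasone (Dex, 10 µg/ml in drinking water for 3 weeks; 3 E47KO and 2 WT), corticosterone (Cort, 100 µg/ml for 3 weeks; 4 and 4) or no treatment (6 and 5). The 3-week Dex protocol also gave epididymal fat (here WAT, for white adipose tissue, from 2 E47KO and 2 WT) and, as skeletal muscle, quadriceps (3 and 2). The 3-week Dex and Cort mice were killed after a glucose tolerance test. Per the study's methods, such tests were done after an overnight fast. A last experiment used a single Dex injection (1 mg/kg, livers taken after 1 h) in 3 liver-specific mutants (Albcre/+;E47fl/fl, here E47LKO) and 3 floxed mice without Cre, of which 1 was E47fl/+ and 2 were E47fl/fl. In E47LKO mice the albumin promoter drives Cre, so only albumin-expressing cells recombine, whereas the global knockouts lack E47 in every cell and are known to lack mature B cells.

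Animal cells build cholesterol from acetyl-CoA through mevalonate, farnesyl diphosphate, squalene and lanosterol. When sterols are scarce in the endoplasmic reticulum, SCAP carries the membrane-bound factor SREBP-2 to the Golgi, where it is cut and freed to raise transcription of nearly all enzymes of the pathway. INSIG proteins hold SCAP back when sterols are plentiful, and the oxysterol receptors LXRα and LXRβ raise genes that export sterols. The liver is the main organ of cholesterol synthesis and of its disposal into bile.

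Libraries held 15.51 to 54.56 M counts in genes. The markers of each labelled tissue were present, with 8 hepatocyte markers summing to 87960 to 162700 CPM (counts scaled to a common library size) in the livers, 8 adipocyte markers to 28900 to 33110 CPM in WAT and 8 skeletal muscle markers to 134600 to 202500 CPM in muscle. *Tcf3* lay between 5.608 and 23.62 CPM in all libraries and passed no test between genotypes (edgeR adjusted p 0.822 to 1.0), but its counts add up E12 and E47 transcripts and so do not check the deletion. The B cell marker *Cd79a* was lower in untreated E47KO than WT livers (-4.34 on the log2 scale, edgeR adjusted p = 0.00538). B cell markers summed to 52.37 and 38.27 CPM in E47KO and 54.79 and 31.4 CPM in WT adipose tissue. The genotypes overlapped there, so these markers do not check the deletion in WAT. In muscle they summed to 7.235, 29.4 and 22.86 CPM in E47KO and 40.28 and 66.51 CPM in WT. Levels are given in CPM with TMM-scaled library sizes, genotype effects as log2 fold changes of mutant over control ± SE, and a gene is said to have changed only at a Benjamini-Hochberg adjusted p under 0.05 over all genes tested in edgeR's quasi-likelihood test.

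The promoters of the 2 genes that passed this threshold between genotypes, *Hmgcs1* and *Nsdhl*, are shown with those of 2 genes that did not, *Tm7sf2* and *Nr1h2*, because SREBP-2 and E47 are both known to bind promoters. *Hmgcs1* (ENSMUSG00000093930, chr13:119690379-119708260, plus strand) encodes the synthase that joins acetyl-CoA and acetoacetyl-CoA to HMG-CoA. *Nsdhl* (ENSMUSG00000031349, chrX:72918557-72958514, plus strand) encodes a dehydrogenase that takes part in C-4 demethylation of sterols. *Tm7sf2* (chr19:6062821-6068373, minus strand) encodes a sterol C-14 reductase and *Nr1h2* (chr7:44549616-44553951, minus strand) encodes LXRβ. Each window runs from 250 bases before to 50 bases after the RefSeq transcript start (GRCm38.p6), 5′ to 3′ on the gene's strand, and capitals mark matches on either strand to the E-box CANNTG or to TCACNCCAC, a form of the sterol response element.
Hmgcs1 (chr13:119690101-119690400): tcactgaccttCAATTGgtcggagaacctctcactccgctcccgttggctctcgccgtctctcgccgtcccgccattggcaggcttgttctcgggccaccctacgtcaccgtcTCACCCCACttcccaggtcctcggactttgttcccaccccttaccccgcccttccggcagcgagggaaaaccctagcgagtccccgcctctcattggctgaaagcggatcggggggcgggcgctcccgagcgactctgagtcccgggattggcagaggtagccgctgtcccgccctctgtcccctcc
Nsdhl (chrX:72918271-72918570): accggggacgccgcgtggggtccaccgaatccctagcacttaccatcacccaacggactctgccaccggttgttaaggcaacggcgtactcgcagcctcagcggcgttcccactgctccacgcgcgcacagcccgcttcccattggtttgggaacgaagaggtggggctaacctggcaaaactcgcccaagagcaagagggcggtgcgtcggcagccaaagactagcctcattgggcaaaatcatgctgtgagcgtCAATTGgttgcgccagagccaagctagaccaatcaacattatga
Tm7sf2 (chr19:6067801-6068100): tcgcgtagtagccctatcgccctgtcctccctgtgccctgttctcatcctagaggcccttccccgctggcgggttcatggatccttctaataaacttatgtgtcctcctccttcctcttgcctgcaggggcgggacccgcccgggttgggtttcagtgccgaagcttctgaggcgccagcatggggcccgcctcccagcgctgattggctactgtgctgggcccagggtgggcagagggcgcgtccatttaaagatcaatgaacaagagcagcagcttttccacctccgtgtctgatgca
Nr1h2 (chr7:44553916-44554215): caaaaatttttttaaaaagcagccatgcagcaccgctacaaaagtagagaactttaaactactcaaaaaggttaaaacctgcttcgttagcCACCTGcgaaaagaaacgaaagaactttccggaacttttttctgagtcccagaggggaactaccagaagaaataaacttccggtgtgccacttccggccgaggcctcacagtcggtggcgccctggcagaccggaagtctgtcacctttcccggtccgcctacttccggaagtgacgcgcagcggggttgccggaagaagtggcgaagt

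The *Hmgcs1* window held the sterol response element form TCACCCCAC at -137 to -129 and an E-box CAATTG at -239 to -234 from the start. The *Nsdhl* window held an E-box CAATTG at 7 to 12, the *Nr1h2* window an E-box CACCTG at -159 to -154, and the *Tm7sf2* window neither motif. The bases of both CAATTG matches overlap a CCAAT box on the other strand. RefSeq promoters were at hand for 27 of the 32 genes and not for *Sqle*, *Fdft1*, *Soat2*, *Fdps* and *Stard4*. CANNTG was found for 21 of these 27 genes, in any promoter listed for them, and in 72.3% of all 32851 promoters searched. It is thus a common motif at this length. Counts out of 27 are of genes, whereas the percentages are of single promoters. TCACNCCAC was found in 1 of 27 (*Hmgcs1*) and in 1.24% of all, CCAAT in 21 of 27 and 37.4%, and the GC box GGGCGG in 20 of 27 and 35.7%. None of the 27 held TCACCCCAC with an A directly before it (0.0913% of all did) or an LXR element, which was searched as 2 copies of AGGTCA with 4 bases between them (0.0152%).

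In livers after 3 weeks of Cort, *Hmgcs1* and *Nsdhl* were lower in E47KO than in WT mice, by 2.034-fold and 2.244-fold. One enzyme acts early and the other late in the pathway. They were 2 of 32 genes of the set that passed the threshold, against 0.0274% of all 14588 genes tested (4 genes, 0.0206% lower and 0.00685% higher).

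*Hmgcs1* read 96.53, 117.0, 109.5 and 113.6 CPM in the 4 E47KO livers and 244.4, 186.6, 236.3 and 221.0 CPM in the 4 WT livers. The groups did not overlap, and every WT liver stood above every E47KO liver by a wide gap. The log2 fold change was -1.02 ± 0.10 (edgeR adjusted p = 0.0204). *Nsdhl* read 13.84, 14.02, 16.58 and 16.63 CPM in E47KO and 43.19, 31.08, 33.8 and 28.96 CPM in WT livers, a log2 fold change of -1.17 ± 0.13 (edgeR adjusted p = 0.0464). Again the groups did not overlap. An antisense transcript, Gm48342, shares 462 bases with *Hmgcs1*, and the unstranded counts used here cannot tell the pair apart.

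The other synthesis enzymes did not pass the threshold in Cort livers. Of the 20 enzymes, 17 had a negative log2 fold change, against 49.4% of all genes, and the median over the 20 was -0.41, against 0.0 over all genes. At an unadjusted p under 0.05, 7 enzymes were lower, against 6.06% of all genes in that direction, and none was higher, against 3.78%. In 3 enzymes the libraries did not overlap between genotypes with E47KO lower, against 3.75% of all genes, and in none with E47KO higher, against 2.60%. The third of these was *Cyp51*, the lanosterol demethylase, at 42.21, 60.74, 59.54 and 50.74 CPM in E47KO and 120.1, 83.93, 86.78 and 62.58 CPM in WT livers (-0.73 ± 0.19, edgeR unadjusted p = 0.00467, edgeR adjusted p = 0.279).

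The early steps to farnesyl diphosphate varied in Cort livers. *Idi1*, the isopentenyl diphosphate isomerase, read 7.573, 12.72, 15.3 and 11.9 CPM in E47KO and 25.63, 17.07, 27.52 and 12.6 CPM in WT livers (-0.80 ± 0.28, edgeR unadjusted p = 0.0188). The genotypes overlapped, as E47KO liver 2 and 3 reached the lowest WT liver. The phosphomevalonate kinase gene *Pmvk* had -0.41 ± 0.17 (edgeR unadjusted p = 0.0394), the mevalonate kinase gene *Mvk* -0.43 ± 0.26, the decarboxylase gene *Mvd* -0.11 ± 0.40 and the thiolase gene *Acat2* -0.12 ± 0.10. *Fdps*, which makes farnesyl diphosphate, had -0.45 ± 0.43, and *Ggps1*, which makes the geranylgeranyl diphosphate used to modify proteins, had 0.19 ± 0.12. *Aacs*, which activates acetoacetate for lipid synthesis, was the enzyme with the most positive value, 0.47 ± 0.32, and E47KO liver 2 alone read 69.34 CPM while the other 7 livers lay between 23.86 and 40.45 CPM.

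Most later steps also had negative values. *Msmo1*, the C-4 methyl oxidase that precedes NSDHL, had -0.67 ± 0.26 (edgeR unadjusted p = 0.0325), and the sterone reductase gene *Hsd17b7*, which acts after it, had -0.41 ± 0.14 (edgeR unadjusted p = 0.0151). Squalene is made by the product of *Fdft1* (-0.27 ± 0.12), oxidised by that of *Sqle* (-0.67 ± 0.44) and cyclised to lanosterol by that of *Lss* (-0.14 ± 0.14). The remaining enzymes after lanosterol had values from -0.46 to 0.04, namely *Dhcr7* (7-dehydrocholesterol reductase, -0.46 ± 0.20), *Sc5d* (a desaturase, -0.16 ± 0.24), *Tm7sf2* (-0.01 ± 0.26) and *Ebp* (a sterol isomerase, 0.04 ± 0.09).

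Among sensing and control genes in Cort livers, none of 8 passed the threshold or an unadjusted p under 0.05, with a median of -0.09. *Insig2* had -0.56 ± 0.29, *Insig1* -0.39 ± 0.17 and *Srebf2*, which encodes SREBP-2, -0.30 ± 0.20. *Scap* (-0.06 ± 0.09), *Stard4*, a sterol carrier (-0.12 ± 0.15), the LXR genes *Nr1h3* (0.02 ± 0.08) and *Nr1h2* (0.01 ± 0.08), and *Mylip*, a ubiquitin ligase induced by LXR (0.35 ± 0.30), had smaller or positive values. The exporter genes *Abca1* (-0.06 ± 0.11), *Abcg5* (-0.06 ± 0.17) and *Abcg8* (0.17 ± 0.21) and the sterol acyltransferase gene *Soat2* (0.24 ± 0.17) had a median of 0.06. In whole tissue, fewer cells of a type and less RNA per cell cannot be told apart.

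The Cort livers fell into 2 ranges of animal numbers, which follow another measure. Skeletal muscle markers summed to 1.03, 1.114 and 0.8153 CPM in E47KO 1, E47KO 2 and WT 1 (the first range) and to 148.0 to 204.1 CPM in E47KO 3, E47KO 4 and WT 2 to 4 (the second), so both genotypes stood on both sides. Within the first range *Hmgcs1* had a log2 ratio of means of -1.19 and *Nsdhl* of -1.63 (2 E47KO and 1 WT). Within the second they had -0.94 and -0.91 (2 and 3), so both genes were lower in E47KO within each range. B cell markers summed to 0.3192 to 0.8513 CPM in E47KO and 0.8852 to 2.06 CPM in WT livers, and their part in the result was not tested.

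The 2 calls in Cort livers were lost in most fits that left out 1 library. Without any 1 of E47KO 1, 2, 3 or 4, WT 3 or WT 4, neither gene passed the threshold, without WT 2 *Hmgcs1* alone passed, and without WT 1 both did. The log2 fold changes moved little in these fits, from -1.10 to -0.97 for *Hmgcs1* and from -1.24 to -1.03 for *Nsdhl*. With all libraries kept, DESeq2 called both genes (DESeq2 adjusted p = 1.74e-14 for *Hmgcs1* and 5.49e-11 for *Nsdhl*). So did edgeR with the animal number range as a covariate (edgeR adjusted p = 0.00935 and 0.0112).

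**Figure D1:**
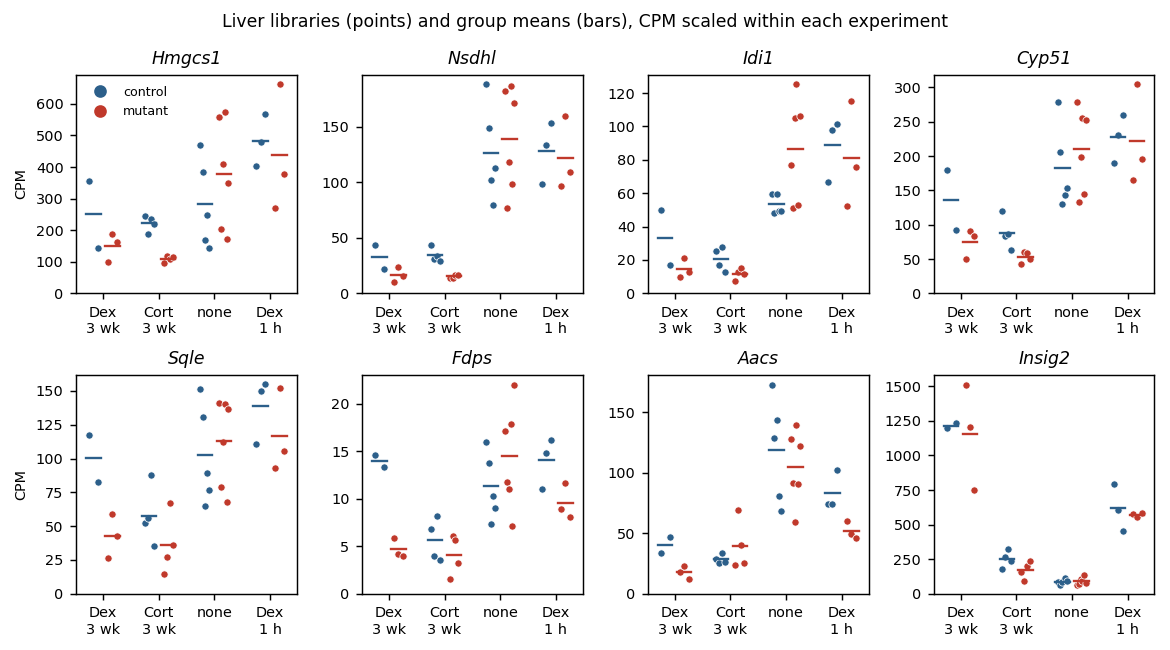
CPM of 8 genes in each liver library of the 4 liver experiments (linear axis), with points for single libraries and bars for group means. In the Cort panels for *Hmgcs1* and *Nsdhl* the 4 E47KO livers (96.53 to 117.0 and 13.84 to 16.63 CPM) lie below all 4 WT livers (186.6 to 244.4 and 28.96 to 43.19 CPM), while in untreated livers the genotypes overlap.

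In livers after 3 weeks of Dex, the synthesis enzymes were mostly lower in E47KO, but no gene of the set passed the threshold. Of 20 enzymes 17 had a negative log2 fold change (49.4% of all genes did), with a median of -0.70 against 0.0 over all genes. At an unadjusted p under 0.05, 10 of the 32 genes were lower, 8 of them enzymes, against 1.91% of all genes, and none was higher, against 1.17%. DESeq2 gave 1 call (*Fdps*). Of the 13300 genes tested, 0.00752% (1 gene, no member of the set) passed the threshold.

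*Fdps* had the largest difference, at 5.887, 4.196 and 3.936 CPM in E47KO and 14.58 and 13.33 CPM in WT livers. The groups did not overlap and both WT livers read alike. The log2 fold change was -1.58 ± 0.22 (edgeR unadjusted p = 0.0002, edgeR adjusted p = 0.443). With 95% or more identity, 5 other loci, mostly processed pseudogenes, match *Fdps*, so its counts are uncertain.

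*Sqle*, the squalene epoxidase, read 26.03, 58.75 and 42.5 CPM in E47KO and 117.7 and 82.47 CPM in WT livers (-1.24 ± 0.33, edgeR unadjusted p = 0.00762). *Aacs* read 17.85, 22.74 and 12.23 CPM against 33.75 and 46.59 CPM (-1.19 ± 0.27, edgeR unadjusted p = 0.00347). Neither gene overlapped between genotypes. *Cyp51* (50.35, 90.38 and 83.41 against 179.3 and 92.17 CPM) and *Dhcr7* (23.26, 32.44 and 23.09 against 56.53 and 33.38 CPM) also did not overlap, but WT liver 2 lay just above the highest E47KO liver in both. In all, 7 of 32 genes did not overlap with E47KO lower, against 7.62% of all genes. *Srebf2* (50.3, 57.85 and 46.44 against 67.16 and 65.99 CPM, -0.37 ± 0.13, edgeR unadjusted p = 0.0296) and *Stard4* (62.45, 108.5 and 101.1 against 167.8 and 116.0 CPM, -0.65 ± 0.27, edgeR unadjusted p = 0.0497) were the 2 of these that are not enzymes. *Nr1h2* was the 1 gene that did not overlap in the other direction (0.11 ± 0.11), against 7.44% of all genes.

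The 2 genes called in Cort livers were not past the threshold in Dex livers. *Hmgcs1* read 100.5, 186.4 and 163.1 CPM in E47KO and 355.9 and 144.2 CPM in WT livers, so WT liver 2 fell among the E47KO livers (-0.74 ± 0.41, edgeR unadjusted p = 0.114). *Nsdhl* read 10.24, 23.51 and 15.48 CPM against 43.41 and 21.66 CPM (-0.99 ± 0.40, edgeR unadjusted p = 0.0432), again with WT liver 2 inside the E47KO range. *Idi1* (-1.20 ± 0.49, edgeR unadjusted p = 0.0438) and *Lss* (-0.67 ± 0.28, edgeR unadjusted p = 0.0476) had the same order of libraries at the top, with WT liver 1 highest.

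One WT liver stood apart in Dex livers. WT liver 1 was the highest of the 5 Dex livers in 17 of 20 enzymes, and E47KO liver 1 the lowest in 12. The geometric mean of the 20 enzymes was 24.02, 38.59 and 30.25 CPM in E47KO and 61.7 and 35.77 CPM in WT livers, so WT liver 2 lay between E47KO liver 3 and E47KO liver 2. Leaving out either WT liver leaves 1 WT library, so only effect sizes are given for fits without 1 library. Over these fits the log2 fold change ran from -1.25 to 0.06 for *Hmgcs1* and from -0.91 to 0.06 for *Fdft1*. It ran from -1.78 to -1.47 for *Fdps*, from -1.55 to -0.96 for *Sqle* and from -1.41 to -0.94 for *Aacs*. Within the animal number range of E47KO 1, E47KO 2 and WT 1, all 20 enzymes were lower in E47KO (median log2 ratio -0.97), and within that of E47KO 3 and WT 2, 12 of 20 were (median -0.11). *Fdps* (-1.53 and -1.76), *Sqle* (-1.47 and -0.96) and *Aacs* (-0.73 and -1.93) were lower in E47KO in both ranges, whereas *Hmgcs1* had -1.31 in the first and 0.18 in the second.

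**Figure D2:**
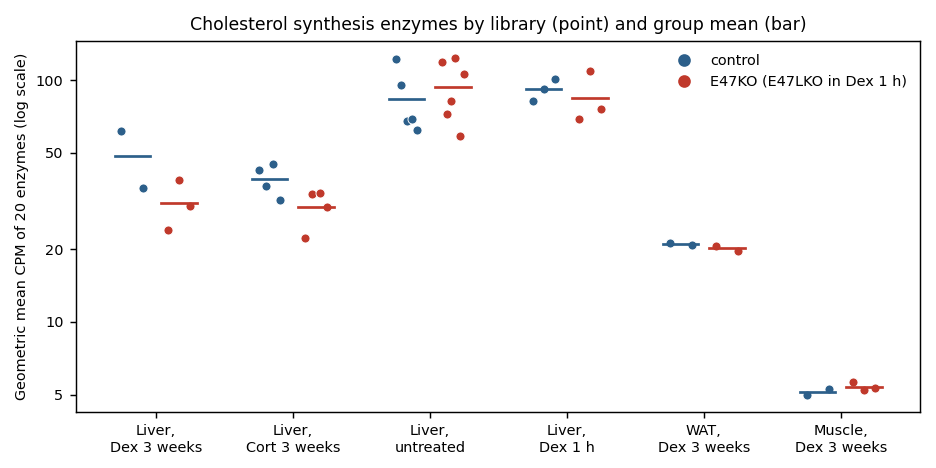
Geometric mean CPM of the 20 synthesis enzymes in each library of the 6 experiments (log axis), mutants and controls side by side, 1 point per library. In Dex livers 1 WT library (61.7 CPM) stands above the other 4 (24.02 to 38.59 CPM), and in untreated livers both genotypes span a similar range.

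Other gene lists were measured in the same Dex livers. The summed level of 10 output genes of the circadian clock was 314.9, 427.7 and 305.9 CPM in E47KO and 505.7 and 485.3 CPM in WT livers, with 9 of the 10 lower in E47KO and 4 at an unadjusted p under 0.05. Of 6 genes on the Bmal1 side, 5 were higher and 3 had an unadjusted p under 0.05. Of 9 immediate early genes all were lower, 5 at that p, and of 12 classical glucocorticoid receptor targets all were lower, 1 at that p. Over all genes, 1.91% were lower and 1.17% higher at that p, and 49.4% had a negative log2 fold change. None of the genes in these 4 lists passed the threshold, and their part in the result for the synthesis enzymes was not tested. B cell markers summed to 0.5592, 0.4772 and 0.3464 CPM in E47KO and 1.669 and 5.694 CPM in WT livers after Dex, and 6 of 7 tested skeletal muscle markers were higher in E47KO (median 0.98; summed 8.255 to 24.05 CPM in E47KO and 8.816 and 11.26 CPM in WT). The part of these markers was not tested either. In Cort livers the summed output level was 662.6 to 804.9 CPM in E47KO and 595.6 to 713.8 CPM in WT, so the genotypes overlapped.

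The remaining genes of the set had small differences in Dex livers. *Insig1* had -0.48 ± 0.46 and *Insig2* -0.07 ± 0.29, with E47KO livers at 1511, 1204 and 750.3 CPM and WT livers at 1196 and 1235 CPM. *Scap* had 0.16 ± 0.15, *Mylip* 0.19 ± 0.35 and *Nr1h3* 0.04 ± 0.15. The efflux and esterification genes ran from -0.18 ± 0.19 (*Abca1*) to 0.18 ± 0.17 (*Soat2*), and the bile and gut exporter pair *Abcg5* (-0.09 ± 0.24) and *Abcg8* (-0.01 ± 0.20), which overlap on opposite strands, had values near 0. Of the enzymes not yet named, *Mvd* had -1.0 ± 0.61, *Msmo1* -0.79 ± 0.47, *Mvk* -0.58 ± 0.38, *Pmvk* -0.52 ± 0.28 and *Fdft1* -0.51 ± 0.39. *Hsd17b7* (-0.36 ± 0.33), *Acat2* (-0.31 ± 0.24), *Tm7sf2* (-0.05 ± 0.13), *Ebp* (0.05 ± 0.14), *Sc5d* (0.11 ± 0.38) and *Ggps1* (0.17 ± 0.22) completed the list.

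In untreated livers no gene of the set passed the threshold (0.0288% of 13904 genes did, 0.0216% lower and 0.00719% higher, 4 in all; DESeq2 also called none of the set), and most enzymes had a positive value. Of 20 enzymes 15 had a positive and 5 a negative log2 fold change (51.2% of all genes were negative), with a median of 0.16 against -0.01 over all genes. *Idi1* was the only member with an unadjusted p under 0.05, against 1.42% of all genes in the higher and 2.21% in the lower direction. Its lowest, median and highest E47KO livers read 50.93, 91.08 and 125.2 CPM, and the 5 WT livers 59.57, 48.15, 59.82, 49.47 and 49.2 CPM (0.70 ± 0.23, edgeR unadjusted p = 0.0091, edgeR adjusted p = 0.965). The genotypes overlapped at the low end. *Hmgcs1* ran from 171.4 to 574.2 CPM in E47KO (median 379.2) and read 468.2, 385.6, 169.0, 248.1 and 143.3 CPM in WT livers (0.42 ± 0.38). *Nsdhl* ran from 76.57 to 186.5 CPM (median 144.5) against 187.9, 148.7, 102.3, 79.39 and 112.4 CPM (0.14 ± 0.27).

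The enzymes varied widely among untreated mice of both genotypes, and the values differed by range of animal numbers. Their geometric mean ran from 58.52 to 123.9 CPM in E47KO and from 62.3 to 122.0 CPM in WT livers. Within the 4 ranges that hold both genotypes, 6, 0, 1 and 13 of 20 enzymes were lower in E47KO, with median log2 ratios of 0.20, 0.59, 0.40 and -0.04. With the range as a covariate *Hmgcs1* had 0.64 ± 0.22 (edgeR unadjusted p = 0.0197, edgeR adjusted p = 0.555) and *Idi1* 0.57 ± 0.25 (edgeR unadjusted p = 0.053). WT liver 1 was the highest of 11 in 10 enzymes and E47KO liver 4 in 7. No member was free of overlap between genotypes (0.273% of all genes were, with E47KO lower, and 0.151% with E47KO higher). The sensing genes had a median of 0.06 and the efflux and esterification genes of -0.03, with all 12 values between -0.23 (*Nr1h2*) and 0.18 (*Stard4* and *Mylip*).

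The genotype effect itself was compared between treatments in 1 fit over the 24 livers of global knockouts and WT mice. No member passed the threshold for a difference in effect, in any of 3 such comparisons. For Cort minus untreated, 0.00626% of 15976 genes did (1 gene), 5 members had an unadjusted p under 0.05 with the effect more negative under Cort (3.11% of all genes), and DESeq2 called no member. These were *Idi1* (-1.48 ± 0.44), *Nsdhl* (-1.29 ± 0.40), *Hmgcs1* (-1.43 ± 0.50), *Cyp51* (-0.92 ± 0.37) and *Hsd17b7* (-0.75 ± 0.31). Their edgeR adjusted p ran from 0.569 (*Idi1* and *Nsdhl*) to 0.724 (*Hsd17b7*). A median of -0.53 over the 20 enzymes stood beside 0.02 over all genes.

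For Dex minus untreated, 8 members (7 enzymes and *Stard4*) had an unadjusted p under 0.05 with the effect more negative under Dex, against 1.72% of all genes. *Idi1* had -1.90 ± 0.51 (edgeR unadjusted p = 0.00125) and *Fdps* -1.94 ± 0.58 (edgeR unadjusted p = 0.00305). For Dex minus Cort, *Aacs* alone did (-1.68), against 1.24% of all genes. In both comparisons edgeR and DESeq2 called no member. The 3 comparisons share livers with each other and with the effects above, so they are not separate evidence. The lack of a call does not show that the effects were alike.

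**Figure D3:**
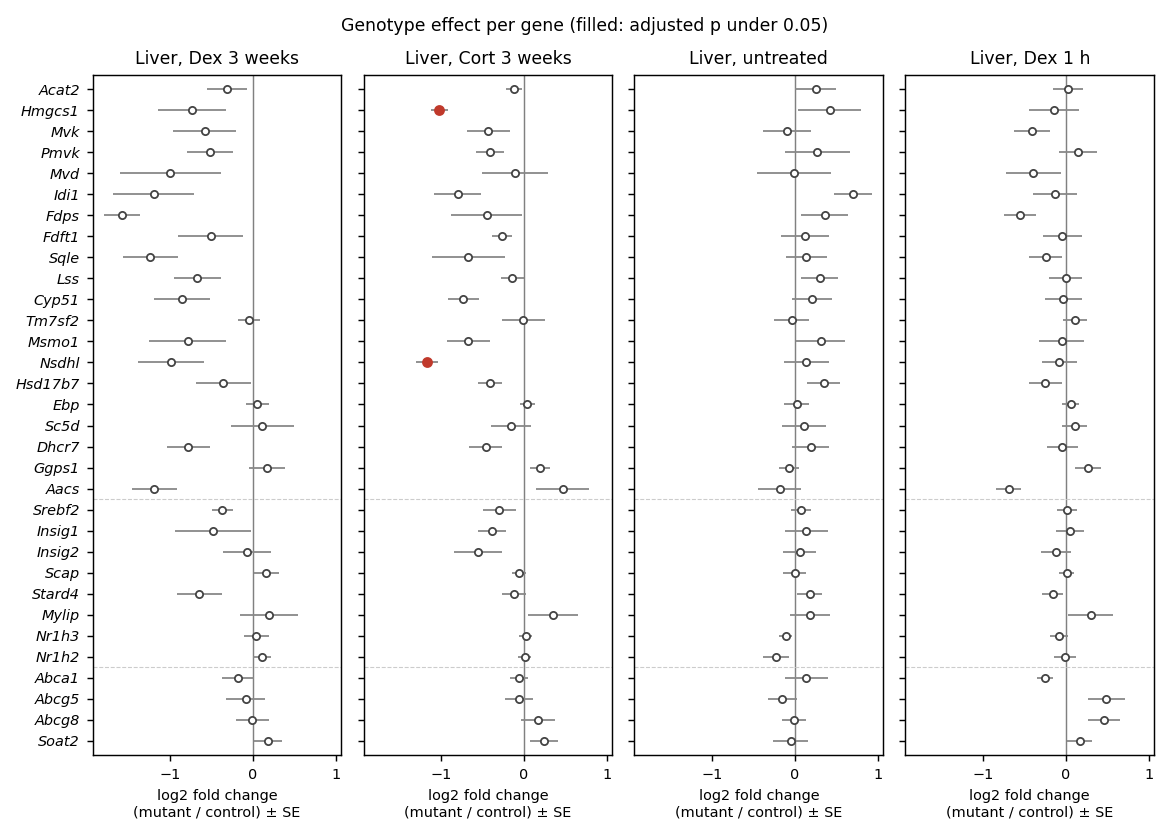
Log2 fold change of mutant over control for all 32 genes in the 4 liver experiments, with bars of 1 SE and genes ordered by role. Filled marks are the 2 calls, *Hmgcs1* (-1.02) and *Nsdhl* (-1.17) in Cort livers. Most enzymes lie left of 0 in Dex and Cort livers and at or right of 0 in untreated livers.

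In livers taken 1 h after a Dex injection, no gene of the set differed between E47LKO mice and floxed controls past the threshold. None of the 12601 genes tested did (0%), edgeR gave 242 lower and 224 higher genes an unadjusted p under 0.05, and DESeq2 called 4 genes but no member. The median of the 20 enzymes was -0.04, against 0.0 over all genes, and 14 were negative (49.3% of all genes were). *Aacs* read 59.68, 49.61 and 46.1 CPM in E47LKO and 74.37, 73.9 and 102.2 CPM in control livers (-0.69 ± 0.15, edgeR unadjusted p = 0.00188). It was the 1 member whose libraries did not overlap, against 4.13% of all genes in that direction and 4.44% in the other. *Fdps* read 8.9, 11.7 and 8.119 CPM against 11.06, 14.85 and 16.17 CPM (-0.55 ± 0.19, edgeR unadjusted p = 0.0181), with E47LKO liver 2 above the lowest control.

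Among the exporters, *Abca1*, which loads cholesterol onto apolipoprotein A-I, had -0.25 ± 0.10 (edgeR unadjusted p = 0.0372) and *Abcg8* 0.46 ± 0.19 (edgeR unadjusted p = 0.0388), and both overlapped between groups. At an unadjusted p under 0.05, 3 members were lower and 1 higher, against 1.92% and 1.78% of all genes. *Hmgcs1* read 271.4, 664.4 and 376.6 CPM in E47LKO and 402.8, 477.8 and 569.3 CPM in control livers (-0.14 ± 0.30), and *Nsdhl* 96.96, 159.2 and 108.9 CPM against 98.56, 133.8 and 152.9 CPM (-0.08 ± 0.21). E47LKO liver 2 was the highest of the 6 livers in 14 enzymes and E47LKO liver 1 the lowest in 11, so the mutants lay on both sides of most controls. How many members reached an unadjusted p under 0.05 depended on the library left out, most on E47LKO liver 2.

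Long Cort treatment went with lower synthesis genes in both genotypes. Against untreated livers, 16 of 20 enzymes fell in WT mice and 18 of 20 in E47KO mice, and no enzyme rose. Over all members, 20 fell and 3 rose in WT and 22 fell and 3 rose in E47KO livers. This stands beside 31.9% of all genes called in WT (16.2% lower and 15.7% higher) and 37.9% in E47KO (18.3% lower and 19.7% higher). The median log2 fold change of the enzymes was -1.16 in WT and -1.70 in E47KO, against -0.01 and -0.02 over all genes.

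The largest falls were spread over the pathway. *Nsdhl* fell by 2.0 ± 0.30 on the log2 scale in WT (edgeR adjusted p = 5.71e-05) and by 3.28 ± 0.31 in E47KO livers (3.11e-07). *Dhcr7*, the last enzyme of one branch, fell by 2.07 ± 0.26 and 2.71 ± 0.26, and *Msmo1* by 1.90 ± 0.37 and 2.87 ± 0.38. *Idi1* fell by 1.48 ± 0.32 and 2.96 ± 0.34 and *Pmvk* by 1.70 ± 0.38 and 2.36 ± 0.38. *Aacs* had the larger fall in WT, 2.17 ± 0.33 against 1.5 ± 0.31. *Hmgcs1* fell in E47KO livers (1.90 ± 0.37, edgeR adjusted p = 0.000472) and did not pass the threshold in WT livers (-0.47 ± 0.36, edgeR adjusted p = 0.34). The difference between genotypes is the one tested above, which did not pass the threshold. *Mvd*, *Sqle* and *Hsd17b7* also did not pass in WT, and *Mvd* and *Ggps1* did not in E47KO livers.

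*Insig2* went the other way. It rose by 1.43 ± 0.26 in WT (edgeR adjusted p = 0.000353) and by 0.83 ± 0.25 in E47KO livers (0.0118), while *Insig1*, itself a target of SREBP-2, fell by 1.34 ± 0.31 and 1.85 ± 0.31. *Nr1h2* rose in both genotypes (0.51 ± 0.14 and 0.76 ± 0.14), *Srebf2* in WT only past the threshold (0.64 ± 0.16; 0.28 ± 0.15 in E47KO) and *Nr1h3* in E47KO only (0.32 ± 0.08; 0.18 ± 0.09 in WT), and neither difference between genotypes passed. *Stard4* fell by 0.95 ± 0.19 and 1.23 ± 0.18, *Abcg5* by 0.59 ± 0.20 and 0.49 ± 0.19, and *Abcg8* by 0.66 ± 0.19 and 0.48 ± 0.18. *Scap*, *Mylip*, *Abca1* and *Soat2* did not pass in either genotype.

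Cort and untreated livers were also 2 experiments. The Cort mice had been through a glucose tolerance test, which per the study's methods was done after an overnight fast. Their libraries held 50.05 to 50.1% of strand-resolved counts in the larger strand column, against 96.93 to 97.5% in untreated livers. Treatment, fasting, other handling and library preparation cannot be told apart in this comparison. Of 12 fatty acid synthesis genes, 8 fell in WT and 10 in E47KO livers and none rose, with medians of -1.08 and -1.43. Of 28 other sterol and isoprenoid genes, 5 fell and 4 rose in WT and 12 fell and 3 rose in E47KO livers. Over all genes, 16.2% fell and 15.7% rose in WT and 18.3% fell and 19.7% rose in E47KO livers.

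**Figure D4:**
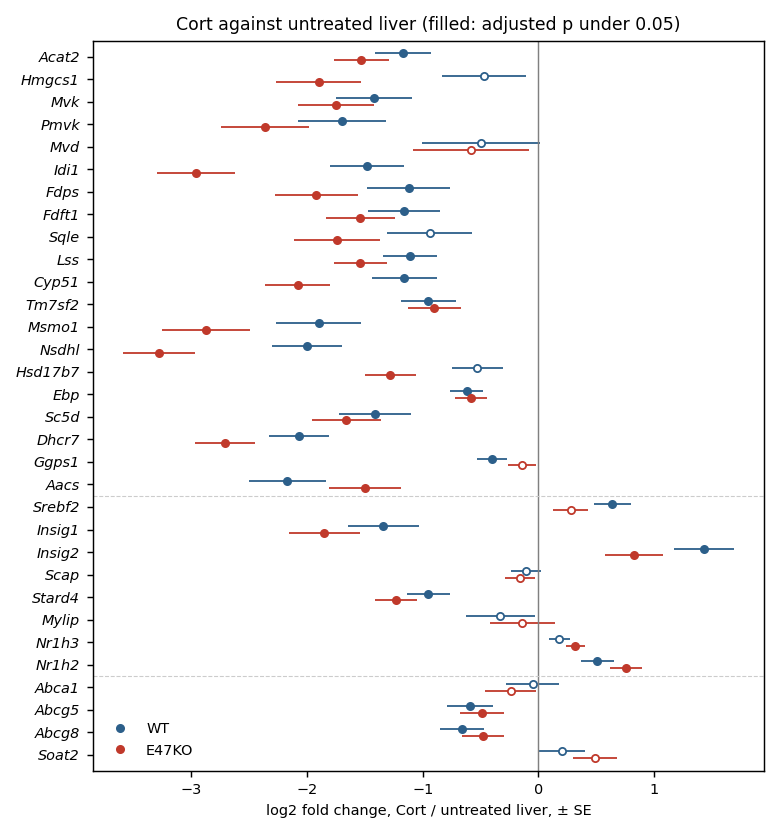
Log2 fold change of Cort over untreated livers for the 32 genes, WT and E47KO livers shown separately with bars of 1 SE. Of the enzymes, 16 fell past the threshold in WT and 18 in E47KO, whereas *Insig2* rose in both (1.43 and 0.83).

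The levels of the genes differed widely in liver. Per kilobase of exon, *Sc5d* (114.0 ± 45.06 CPM per kb, SD, n = 5), *Insig1* (108.2 ± 28.79) and *Ebp* (108.0 ± 24.2) were highest in untreated WT livers, and these 3 did not differ beyond their spread. *Hmgcs1* followed at 66.74 ± 33.66, *Msmo1* at 52.74 ± 21.04 and *Nsdhl* at 47.92 ± 16.71, again within their spread. *Ggps1* (1.374 ± 0.1191), *Mylip* (2.232 ± 0.7681) and *Fdps* (2.904 ± 0.9359) were lowest. Other loci share near-identical sequence with *Fdps* and *Ggps1*, so their counts, and with them their place in this order, are uncertain.

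*Insig2* varied most between the liver experiments. It read 26.88 ± 5.593 CPM per kb in untreated WT (n = 5) and 28.08 ± 8.034 in untreated E47KO livers (n = 6), and 73.69 ± 18.48 and 50.29 ± 18.56 after Cort (n = 4 each). After 3 weeks of Dex it read 375.3 ± 10.05 in WT (n = 2) and 354.5 ± 114.4 in E47KO livers (n = 3), and 1 h after Dex 203.3 ± 58.88 in controls and 185.5 ± 3.928 in E47LKO livers (n = 3 each). No liver of either Dex experiment fell to the level of any untreated or Cort liver, as the lowest Dex liver read 147.1 and the highest Cort liver 96.23 CPM per kb. Experiments differ in handling (including any fasting) and library type as well as in hormone, so these levels are set side by side with no test. No difference in *Insig2* between mutants and controls passed the threshold (edgeR adjusted p 0.575 to 1.0).

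Outside the liver, no member passed the threshold between genotypes after 3 weeks of Dex. In WAT edgeR called none of 16289 genes (0%, with 699 genes and no member at an unadjusted p under 0.05, where 2.23% of all genes were lower and 2.06% higher), and DESeq2 called 38 genes but no member. The 20 enzymes had a median of -0.07, against 0.0 over all genes, and 13 were negative, against 49.5% of all genes. *Hmgcs1* read 216.2 and 138.0 CPM in E47KO and 175.8 and 152.9 CPM in WT adipose tissue, and *Nsdhl* 31.8 and 36.74 against 34.37 and 36.58 CPM. The genotypes overlapped in both. In WAT 5 members did not overlap with E47KO lower and 4 with E47KO higher, against 17.2% and 15.8% of all genes. *Abcg8* was too low to be tested in WAT. *Mylip* read 51.53 and 81.5 CPM in E47KO and 83.23 and 79.4 CPM in WT. Its log2 fold change was -0.66 when E47KO 3 was left out, a fit that holds 1 E47KO library.

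In muscle 0.0134% of 14962 genes passed (2 genes, no member), and DESeq2 called no member. Of the 20 enzymes 13 were positive (46.7% of all genes were negative), with a median of 0.03. *Acat2* read 2.961, 2.724 and 2.874 CPM in E47KO and 1.662 and 1.754 CPM in WT muscle (0.74 ± 0.20, edgeR unadjusted p = 0.009, edgeR adjusted p = 0.839). *Pmvk* read 8.984, 8.019 and 7.141 CPM against 6.297 and 5.856 CPM (0.40 ± 0.15, edgeR unadjusted p = 0.0349). These 2 members were the only ones with an unadjusted p under 0.05 (2.91% of all genes were higher at that p) and the only ones without overlap (9.50% of all genes, E47KO higher). Sequence of 95% or more identity is shared by *Acat2* with *Acat3* and *Tcp1*, so its counts are uncertain. Adipocyte markers summed to 573.0 to 708.3 CPM in E47KO and 180.7 to 290.0 CPM in WT muscle, and *Acat2* and *Pmvk* were higher in WAT than in muscle in these mice (3.98 ± 0.16 and 2.49 ± 0.17). Their part in the 2 differences was not tested. *Abcg5*, *Abcg8* and *Soat2* were too low to be tested in muscle.

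The genotype effect in Dex liver was also set against that in WAT and muscle, in a fit over 14 Dex libraries of the 3 tissues. No member passed the threshold (0% of 18113 genes did, in either comparison; edgeR gave 834 and 592 genes an unadjusted p under 0.05), and DESeq2 called no member. For liver minus muscle, 7 enzymes had an unadjusted p under 0.05 with the effect more negative in liver (2.42% of all genes) and the median was -0.83. For liver minus WAT, 3 did (1.82%) and the median was -0.67. Per the animal numbers, 3 mice gave both a liver and a muscle, which the fit treats as separate samples.

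Across tissues the levels themselves differed for most members. In Dex-treated mice of both genotypes, 27 of 32 genes were higher in liver than in muscle (36.0% of all genes were) and 21 were higher in liver than in WAT (33.8%). *Ggps1* and *Mylip* were lower in liver than in muscle (40.4% of all genes were), and 6 genes were lower in liver than in WAT, namely *Acat2*, *Pmvk*, *Ggps1*, *Aacs*, *Mylip* and *Nr1h3* (41.6%). Between WAT and muscle, 22 were higher in WAT (43.5%) and *Idi1*, *Fdft1* and *Hsd17b7* were lower (33.8%). *Nr1h2* passed in no comparison, at 12.09 ± 0.5917 CPM per kb in liver (SD, n = 5), 11.87 ± 0.1754 in WAT (n = 4) and 10.9 ± 1.428 in muscle (n = 5).

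The exporter genes *Abcg5* and *Abcg8* and the acyltransferase gene *Soat2* were near 0 in WAT and muscle. *Abcg5* read 29.94 ± 6.346 CPM per kb in liver and 0.1691 ± 0.06986 in WAT, and *Abcg8* 30.38 ± 4.651 and 0.03424 ± 0.01793. In E47KO muscle both were at the floor of 3 counts, and no muscle library held more than 17 counts of either. *Soat2* read 15.32 ± 2.336 in liver, 0.4195 ± 0.1262 in WAT and 0.04089 ± 0.00908 in muscle. WAT libraries held 2773 to 5680 CPM of hepatocyte markers, whose part in these low WAT levels was not tested. *Insig2* read 362.8 ± 81.86 in liver against 12.14 ± 1.142 in WAT and 14.53 ± 0.7598 in muscle.

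Among enzymes of early synthesis, *Acat2*, *Pmvk* and *Aacs* were higher in WAT than in liver, while others went the other way. For liver over WAT, *Hmgcs1* had 0.98 ± 0.26, *Mvd* 1.13 ± 0.37, *Idi1* 4.66 ± 0.35 and *Fdps* 4.43 ± 0.29 on the log2 scale. *Mvk* did not pass the threshold. *Aacs* read 20.86 ± 2.726 CPM per kb in WAT, 7.394 ± 3.819 in liver and 2.992 ± 0.9252 in muscle, and *Acat2* 14.26 ± 1.076, 8.072 ± 2.016 and 0.928 ± 0.2405. *Mylip* read 13.59 ± 2.761 in WAT, 4.742 ± 0.6819 in muscle and 1.853 ± 0.559 in liver. *Fdft1*, the first enzyme committed to sterols, read 17.92 ± 7.296 in liver, 13.13 ± 1.481 in WAT and 19.91 ± 1.862 in muscle, whereas *Sqle* after it read 12.64 ± 6.923, 0.8482 ± 0.08136 and 0.3617 ± 0.04325. *Fdft1* shares near-identical sequence with the pseudogene Gm6781 and overlaps *Ctsb*, so its counts are uncertain. The same holds for *Idi1* (3 other loci), *Ggps1* (2) and *Scap* (1).

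**Figure D5:**
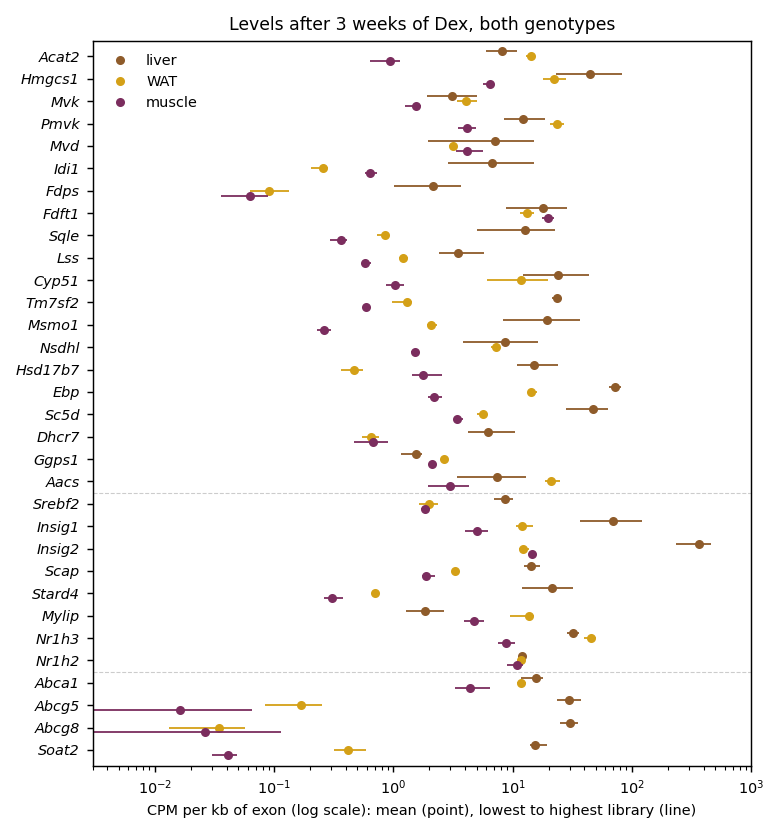
CPM per kilobase of exon (log axis) of the 32 genes in liver, WAT and muscle of Dex-treated mice, as means with lines from the lowest to the highest library. A line that reaches the left edge includes a library with no count. *Abcg5*, *Abcg8* and *Soat2* show the widest gaps between liver and the other tissues, while the means of *Nr1h2* lie between 10.9 and 12.09 in all.

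Genes next to the set were counted for comparison. Of 12 fatty acid synthesis genes, none passed the threshold between genotypes in any of 6 experiments. At an unadjusted p under 0.05, 2 were lower in E47KO in Dex livers (median -0.25), 3 were lower in Cort livers (median -0.22) and 5 were higher in muscle (median 0.38). Adipocyte markers were also higher in E47KO than in WT muscle, as given above, and their part in these 5 was not tested. Of 28 other genes of sterol uptake, bile acid synthesis and isoprenoid use, none passed, with medians of 0.01 in Dex, -0.04 in Cort and 0.02 in untreated livers. At an unadjusted p under 0.05, 1 of the 28 was higher in Dex livers, 2 were lower and 1 higher in Cort livers, and none in untreated livers. Over all genes at that p, 1.91% were lower and 1.17% higher in Dex livers and 6.06% and 3.78% in Cort livers. In untreated livers 2.21% were lower and 1.42% higher, and in muscle 1.04% and 2.91%.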

How the data were processed

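RNA was sequenced from 39 mouse samples in 12 groups. Per the labels and the study's methods, the authors aligned reads to mm10 (submitters' processing notes name STAR 2.4.2a, HTSeq and DESeq2) and deposited raw counts per gene, 1 file a sample. The 3-week Dex libraries are labelled unstranded and list 46078 genes, the others stranded with 45706 genes, and the unstranded counts were used throughout. The Cort libraries are labelled stranded, yet both strand columns held nearly equal counts. Entries that name no gene made up 20.8 to 36.76% and were left out. The authors' comparison tables hold fold changes and p-values and were not used.

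The 32 genes, all other gene lists and the tests were chosen with earlier results of these data known. All 32 are named, by role, and genes of other lists only where called. Promoters are shown for members called between genotypes and for the 2 uncalled members with the largest p in Cort liver. Each experiment was fitted alone with edgeR 4.0.16 (R 4.3.3; filterByExpr, TMM, glmQLFit and glmQLFTest, two-sided, Benjamini-Hochberg over all genes tested). SE is the absolute log2 fold change divided by the square root of F. Contrasts between treatments and tissues came from joint fits of 24 livers and 14 Dex libraries. Levels per kilobase used exon lengths from GENCODE. The scripts were tested on simulated data. There, 29.6% of 2-fold changes were called in Dex livers, 45.9% in WAT, 48.5% in muscle and 53% in Cort livers. In 1 h livers it was 66.7% and in untreated livers 71.4%. Among the genes called, 4% (Cort livers) to 10.8% (WAT) were false. Of 53 replicate pairs none agreed within sampling noise. Ranges of animal numbers came from names of the deposited files and are no batch stated by the labels. Alternatives were other size factors, DESeq2 1.42.0, no filter, the strand column, a replicate block, the animal number range as a covariate and leaving out each library. Chosen after seeing the data were that covariate in DESeq2 and in the joint liver fits, and single ranges.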

Additional observations from a re-analysis of the deposited data

Results flagged for a closer look

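The levels of the 32 genes were examined for single libraries that stood apart in 128 combinations of gene and liver group with 4 to 10 libraries, and 2 did (1.562%). Chance alone flags about 1 in 20 such groups. *Soat2* read 45.57 CPM in the first WT liver after 3 weeks of Cort, above the next library at 39.26 CPM, and the gap was 0.832 of the whole range. *Ggps1* read 4.377 CPM in the first untreated E47KO liver, below the next at 5.753 CPM, and the gap was 0.731 of the range. Neither gene passed the threshold between genotypes in these experiments.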

How the results depend on the processing

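The count of members called between genotypes in Cort livers (2) was 0 to 2 when 1 library was left out, 4 in DESeq2 with the animal number range as a covariate (*Hmgcs1*, *Cyp51*, *Nsdhl* and *Mylip*), and 0 within either range alone, where few libraries remain. DESeq2 alone called *Cyp51* (adjusted p = 0.0305) beside these 2. Over the fits without 1 library, the edgeR adjusted p was 0.0122 to 0.103 for *Hmgcs1* and 0.0194 to 0.297 for *Nsdhl*. In Dex livers (0) the count was 1 in DESeq2 (*Fdps*), 3 with no filter (*Fdps*, *Sqle* and *Aacs*) and 2 in DESeq2 with the range as a covariate (*Fdps* and *Aacs*). In untreated livers (0) *Idi1* had a log2 fold change of 1.23 within 1 number range, which holds 2 E47KO livers and 1 WT liver. In WAT (0) every fit without 1 library leaves 1 library in a group, so no count is given for those fits. The cause of these changes was not tested. The counts for 1 h Dex, muscle and all differences of genotype effects were 0 under every alternative run, and no called value changed sign. Counts over all genes moved more. Against 1, 4, 4, 0, 0 and 2 genes in Dex, Cort, untreated and 1 h livers, WAT and muscle, DESeq2 called 25, 258, 20, 4, 38 and 90, and edgeR with no filter 62, 13, 8, 1, 6 and 37. With the replicate block edgeR called 0 genes in Dex livers, 29 in Cort livers, 2 in untreated livers and 1 in muscle, and with the range as a covariate 0, 74, 2 and 4. DESeq2 with the range called 32 in Dex, 563 in Cort and 54 in untreated livers, 44 in WAT and 124 in muscle. Without 1 library the count reached 6 in Cort livers (without WT 1) and 1 in 1 h livers (control 3). No such count is given for Dex livers, muscle and WAT, where leaving out a library can leave 1 in a group. Single number ranges gave up to 6 in Dex and 82 in untreated livers. For differences of genotype effects, against 1 for Cort minus untreated and 0 otherwise, DESeq2 called 13 for Cort minus untreated, 2 for Dex minus untreated, 1 for Dex minus Cort, 38 for liver minus muscle and 5 for liver minus WAT. Without Dex WT liver 1 edgeR called 24 for Dex minus untreated and 14 for Dex minus Cort, and without WT muscle 1 it called 38 for liver minus muscle. With no filter it called 12 for liver minus muscle and 3 for liver minus WAT, and with the range as a covariate 17 for Cort minus untreated. With the strand column, Cort against untreated livers gave 3981 higher and 2760 lower genes in WT and 4467 and 2988 in E47KO. Replicate numbers were not taken to pair mice, since deviations of same-numbered libraries correlated from -0.485 to 0.748 and not every library correlated best with its own number. In Dex livers fewer members had an unadjusted p under 0.05 with the replicate block than without it. With the replicate block *Hmgcs1* and *Nsdhl* had edgeR adjusted p of 0.0416 and 0.0459 in Cort livers. In WAT no replicate block was fitted, because the groups share 1 number, and edgeR with the range as a covariate called 0 genes. Groups of 2 to 6 libraries limit which differences can be seen, and a p that misses the threshold does not show equality.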
